A study of Mus musculus with 9 samples.

Results

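Mammalian cells build the nonessential amino acids from intermediates of glycolysis and the TCA cycle, with amino groups passed on mainly from glutamate and glutamine. Among the genes of this chemistry, 8 were followed here. Asns, Glul, Gpt2, Got1, Got2, Pycr1 and Aldh18a1 encode enzymes that make asparagine, glutamine, alanine, aspartate and proline, and Pck2 encodes the mitochondrial phosphoenolpyruvate carboxykinase, which turns oxaloacetate into phosphoenolpyruvate. They were chosen by gene symbol and found through their Ensembl identifiers in the GENCODE M21 annotation of GRCm38, which gave 8 of the 20189 genes of the count table, and all 8 were among the 20143 genes that held at least 1 count and were tested.

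E14 cells are a line of pluripotent mouse ES cells. RNA was taken from 3 wild-type samples starved of Thr for 3 h, 3 starved of Cys for 3 h and 3 unstarved controls, and poly(A) mRNA was sequenced from both ends. Mammalian cells cannot make Thr and make Cys only from other amino acids, and none of the 8 genes makes either, so the comparisons ask how these transcripts stand when an amino acid outside their own routes is missing. Cells of all 3 groups were kept on gelatin in serum with the cytokine LIF before the experiment. The sample descriptions give the medium only for Arg and Leu removal (dialyzed serum, GlutaMAX as the glutamine source, LIF, and a control medium with every amino acid), and the study's methods describe a Cys-free DMEM with dialyzed serum and LIF for its cell death assays, so which Thr-free and Cys-free media these 9 samples received is not stated in the sources used here. All results come from a single cell line, and the labels do not say that replicates were separate cultures, so p-values measure the spread between these samples, which may be technical.

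When an amino acid runs short, uncharged tRNA activates the kinase GCN2, phosphorylation of eIF2α lowers general translation, and the transcription factor ATF4 is made in larger amounts. ATF4 pairs with C/EBP factors on composite sites, the C/EBP-ATF response elements, and ASNS is a textbook target of this arm of the integrated stress response. Several other genes of amino acid synthesis, PCK2 and PYCR1 among them, are also known ATF4 targets in other cells.

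The total count per library was 48763102 to 74962733 with Thr starvation, 57700492 to 62657358 with Cys starvation and 54294288 to 61459894 without starvation. Each of the 8 genes had between 1227 counts (Pycr1) and 46611 counts (Asns) in a library. All 10 ES cell markers were above 1 CPM in each group, with sums of 4377 to 4433 CPM in unstarved, 4263 to 4344 CPM in Thr-starved and 4171 to 4221 CPM in Cys-starved libraries. Single ES cell markers moved in both directions with Thr, with mean levels of Utf1 from 307 to 95.1 CPM and Tdh from 357 to 227 CPM, and of Klf4 from 148 to 267 CPM and Sox2 from 397 to 537 CPM. The fibroblast, endoderm, trophoblast and mesoderm lists summed to at most 16.8 CPM. The 4 measured neural markers summed to 169.9 to 176 CPM in unstarved, 89.7 to 92.0 CPM in Thr-starved and 210.0 to 214 CPM in Cys-starved libraries, most of it Tubb3 (means of 147, 60.5 and 180.4 CPM). The neural list did not move as a whole with Thr. Map2 fell along with Tubb3, from 10.1 to 7.09 CPM, while Sox1 rose from 8.37 to 15.4 CPM. Pax6 went from 7.53 to 8.24 CPM (adjusted p = 0.16 in edgeR's quasi-likelihood test). The part of the marker genes in the results was not tested.

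The promoters were read first. RefSeq windows from 250 bases before to 50 bases after the transcription start (assembly GRCm38.p6) were found for all 8 genes and searched on both strands for TGATGNAA, the core of the C/EBP-ATF response element, where N is any base. The letters occurred in 4 of the 8 windows and in 3.97% of 32817 mouse windows of the same length. The 30 bases around each match are printed here so that the elements can be compared between the 4 genes. They are written 5′ to 3′ in the direction of the gene, and capitals mark the motif letters found. In Pck2 and Got1 the match lies on the opposite strand and so reads as its reverse complement, and in Pck2 the capitals also cover an overlapping GTTACA.
Asns, chr6:7693214-7693243, minus strand: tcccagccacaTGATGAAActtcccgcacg
Pck2, chr14:55540152-55540181, plus strand: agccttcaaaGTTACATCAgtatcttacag
Pycr1, chr11:120643833-120643862, minus strand: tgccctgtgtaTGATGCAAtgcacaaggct
Got1, chr19:43524689-43524718, minus strand: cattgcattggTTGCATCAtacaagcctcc

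Counted from the RefSeq start, the match covered bases -23 to -16 in Asns, -103 to -96 in Pck2, -103 to -96 in Pycr1 and -102 to -95 in Got1. In 3 of the 4 genes it therefore stood about the same distance upstream. The GENCODE start of Asns lies 45 bases upstream of the RefSeq start and that of Pycr1 21 bases upstream. On the GENCODE model the Asns match falls just inside the transcript. GTTACA, the letters of the nutrient-sensing element 2 described in ASNS, occurred in 8.25% of all windows and in 2 of the 8, at -3 to 3 in Asns and at -104 to -99 in Pck2, where it overlaps the TGATGNAA match. TGACG, the core of the cAMP response element, occurred in 20.8% of all windows and in 2 of the 8, at -73 to -69 in Asns and at 20 to 24 in Aldh18a1, both on the opposite strand. None of these letters was found in the windows of Glul, Gpt2 and Got2. A match is a description of letters and not a measured binding site.

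**Figure D1:**
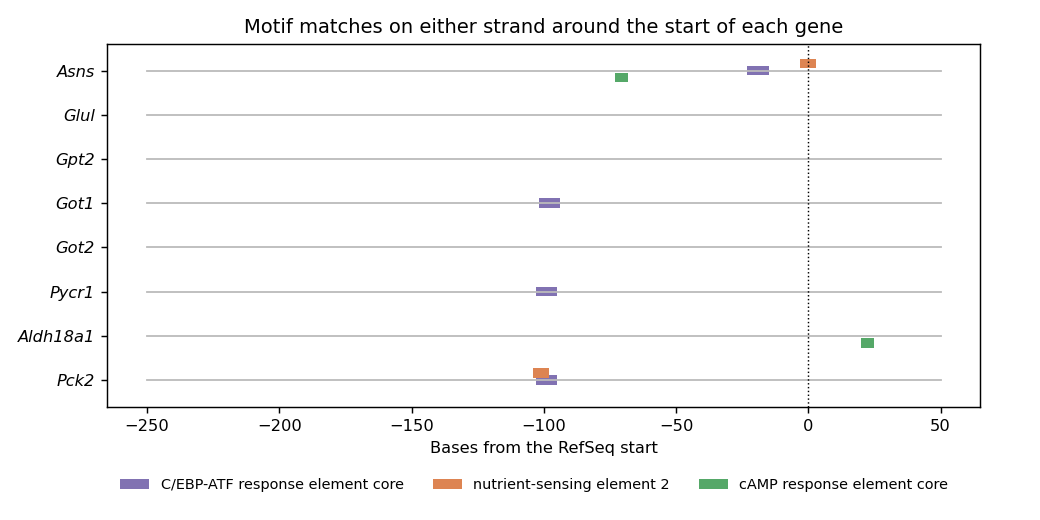
Positions of the 3 searched motifs in the promoter windows of the 8 genes, in bases from the RefSeq start (x axis). Coloured blocks are matches on either strand; Asns holds all 3 motifs, while Glul, Gpt2 and Got2 hold none of them.

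Thr and Cys starvation moved these genes to different extents and, for Pck2 and Pycr1, in opposite directions. With Thr starvation, Asns, Gpt2, Aldh18a1 and Got1 rose while Glul, Pck2, Pycr1 and, by a margin that did not hold in every fit, Got2 fell. With Cys starvation, Pck2, Gpt2, Aldh18a1, Asns and Pycr1 rose, Glul fell, Got2 fell by a margin that did not hold without 1 unstarved library, and Got1 was not called. The 2 starvations were compared with the same unstarved libraries, so their values are set side by side and the difference between them was tested directly.

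In numbers, 8 of the 8 genes were called with Thr starvation (4 higher and 4 lower) at an adjusted p of 0.05 or less, where 63.0% of all tested genes were called, 31.1% higher and 31.9% lower. With Cys starvation 7 of 8 were called (5 higher and 2 lower) against a background of 36.3%, with 17.5% higher and 18.8% lower. Between Thr and Cys starvation 6 of 8 were called (1 higher and 5 lower with Thr) against 62.0%, with 30.4% higher and 31.6% lower. The median log2 fold change of the 8 genes was 0.02 with Thr, 0.37 with Cys and -0.25 for Thr against Cys, beside -0.02, 0.01 and -0.02 over all genes. Regardless of sign, the median change of genes averaging at least 5 CPM was 0.31 with Thr and 0.13 with Cys. With Thr, Glul, Gpt2 and Asns changed by more than this, and Pck2, Aldh18a1, Pycr1, Got1 and Got2 by less. With Cys only Got1 and Got2 changed by less. The libraries of the groups did not overlap for 7, 7 and 6 of the 8 genes, where 66.5%, 46.4% and 65.8% of all genes had no overlap. These background shares were high with Thr, so that a call by itself separated the 8 genes little from the rest of the transcriptome there. The shares run over all 20143 tested genes, of which 11410 averaged at least 5 CPM. Each of the 8 averaged 31.1 CPM or more. Shares among genes of like level were not computed, so the number of calls with Cys does not set the 8 genes apart either. Calls with a log2 fold change of 1 or more in either direction were rarer, at 13.2% of genes with Thr, 1.47% with Cys and 11.4% between them. Among the 8 genes these were Glul with Thr, Pck2 and Gpt2 with Cys, and Pck2 and Glul between the starvations.

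**Figure D2:**
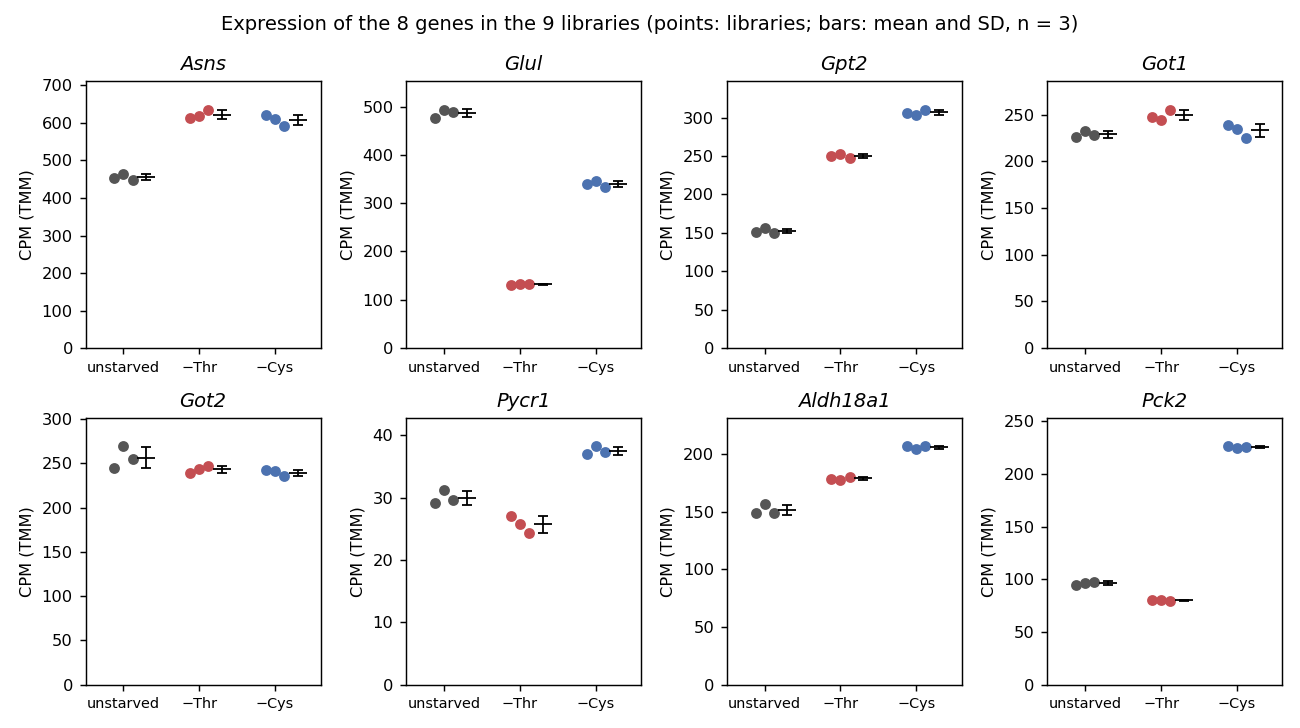
CPM after TMM normalization (y axes, each from 0) of the 8 genes in each of the 9 libraries, with points for libraries and bars for the mean and SD of 3. Glul fell to 131 to 133 CPM with Thr starvation, and Pck2 stood at 225 to 226 CPM with Cys starvation against 79.3 to 97.9 CPM elsewhere.

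Asns (ENSMUSG00000029752; chromosome 6, 7675169 to 7693254, minus strand) encodes asparagine synthetase, which moves the amide nitrogen of glutamine onto aspartate. In unstarved libraries 1, 2 and 3 it stood at 454, 465 and 449 CPM (456 ± 8.27, SD, n = 3). Thr-starved libraries held 612, 619.8 and 635 CPM (622 ± 11.98, SD, n = 3) and Cys-starved libraries 620.3, 611 and 592 CPM (608 ± 14.2, SD, n = 3). Every starved library was above every unstarved one, and the 2 starved groups overlapped. The log2 fold change was 0.45 with Thr (SE 0.022, adjusted p = 2.9e-14) and 0.41 with Cys (SE 0.022, adjusted p = 1.7e-12) in edgeR's quasi-likelihood test, that is 1.36 and 1.33 times the unstarved level. Between Thr and Cys the difference was 0.03 on the log2 scale, with a 95% interval from -0.01 to 0.08 (adjusted p = 0.18). With the deposited size factors this difference was 0.08 (adjusted p = 0.0045), and with the trends in GC content and transcript length removed it was -0.05 (adjusted p = 0.038), so its sign depended on the normalization. In bulk RNA, fewer cells carrying a transcript and less of it per cell cannot be told apart, which holds for every value below.

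Glul (ENSMUSG00000026473; chromosome 1, 153899944 to 153909723, plus strand) encodes glutamine synthetase, which joins ammonia to glutamate and thereby supplies the substrate of asparagine synthetase. It stood at 476, 494 and 489 CPM in the unstarved libraries (486 ± 8.83, SD, n = 3). With Thr starvation it was at 131, 132 and 133 CPM (132 ± 1.03, SD, n = 3), and with Cys starvation at 339.5, 345 and 333 CPM (339 ± 6.28, SD, n = 3). The 3 groups stood fully apart, with Cys-starved libraries between the others. The log2 fold change was -1.88 with Thr (SE 0.023, adjusted p = 1.7e-24), leaving 0.271 of the unstarved level, and -0.52 with Cys (SE 0.022, adjusted p = 3.7e-14), leaving 0.698. The direct comparison gave -1.36 for Thr against Cys (SE 0.023, adjusted p = 5.6e-22). Glul is thus the only one of the 8 whose fall passed a log2 fold change of 1 against unstarved cells. Its exons share 116 bases with those of Teddm2 on the opposite strand, which had 7 to 27 counts per library. They also contain 93 bases of the microRNA gene Mir8114.

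Gpt2 (ENSMUSG00000031700; chromosome 8, 85492576 to 85527560, plus strand) encodes the mitochondrial alanine aminotransferase, which makes alanine from pyruvate and glutamate. Unstarved libraries held 152, 156 and 149.9 CPM (152 ± 3.04, SD, n = 3). Thr-starved libraries held 250.3, 253 and 247 CPM (250.1 ± 2.80, SD, n = 3) and Cys-starved libraries 306, 304 and 310.2 CPM (307 ± 3.41, SD, n = 3). No pair of groups overlapped, and both starvations raised the gene. Log2 fold changes were 0.71 with Thr (SE 0.023, adjusted p = 2.4e-17) and 1.01 with Cys (SE 0.023, adjusted p = 7.5e-19), or 1.64 and 2.01 times the unstarved level. Thr stood below Cys by a log2 difference of -0.29 (SE 0.023, adjusted p = 1.3e-10).

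Got1 and Got2 encode the cytosolic and the mitochondrial aspartate aminotransferase, which form part of the malate-aspartate shuttle. These enzymes turn glutamate and oxaloacetate into 2-oxoglutarate and aspartate, and back. Got1 (ENSMUSG00000025190; chromosome 19, 43499752 to 43524605, minus strand) stood at 226, 233 and 228 CPM in unstarved libraries (229 ± 3.61, SD, n = 3). It was at 248, 245 and 255 CPM with Thr starvation (249 ± 5.48, SD, n = 3) and at 239, 235 and 225 CPM with Cys starvation (233 ± 7.36, SD, n = 3). Thr-starved libraries stood above all others, and Cys-starved libraries spread over the whole unstarved range. On the log2 scale Got1 rose by 0.12 with Thr (SE 0.026, adjusted p = 2.4e-04). With Cys it was 0.03, with a 95% interval from -0.03 to 0.08 (adjusted p = 0.47), and with the deposited size factors it was -0.02 (adjusted p = 0.71). Thr exceeded Cys by 0.10 (SE 0.026, adjusted p = 0.0024).

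Got2 (ENSMUSG00000031672; chromosome 8, 95864134 to 95888547, minus strand) stayed within 0.10 of its unstarved level on the log2 scale. Its unstarved libraries held 245, 269 and 255 CPM (256 ± 12.1, SD, n = 3), the Thr-starved 239, 243 and 247 CPM (243 ± 3.96, SD, n = 3) and the Cys-starved 242, 241 and 235 CPM (239 ± 3.62, SD, n = 3). Cys-starved libraries stood just below the unstarved range and Thr-starved libraries overlapped it. Log2 fold changes were -0.08 with Thr (SE 0.028, adjusted p = 0.022) and -0.10 with Cys (SE 0.028, adjusted p = 0.0074). Both calls rested on unstarved library 2, the highest. Without it the values were -0.03 (adjusted p = 0.28) and -0.06 (adjusted p = 0.069), and without Thr-starved library 1 the former was -0.06 (adjusted p = 0.12). With the GC and length trends removed the change with Thr was 0.03 (adjusted p = 0.30). Between Thr and Cys the difference was 0.02 with a 95% interval from -0.04 to 0.08 (adjusted p = 0.51). It was 0.07 (adjusted p = 0.047) with the deposited size factors and 0.13 (adjusted p = 7.4e-05) with the GC and length trends removed. The gene's count is also uncertain, because 72.5% of its longest transcript of 2530 bases has near-identical copies in other annotated genes (matches of at least 43 bases at 97% identity or more), Gm10874 and the pseudogene Got2-ps1 among them. These stood at 23.0 to 27.7 CPM and 12.1 to 14.1 CPM over all libraries.

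Aldh18a1 and Pycr1 act in turn on the mitochondrial route from glutamate to proline. Aldh18a1 encodes pyrroline-5-carboxylate synthase, which starts the route, and Pycr1 encodes a pyrroline-5-carboxylate reductase, which ends it. With Thr starvation the starting enzyme rose and the final enzyme fell, while with Cys starvation both rose.

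Aldh18a1 (ENSMUSG00000025007; chromosome 19, 40550257 to 40588463, minus strand) stood at 149, 156 and 148 CPM in unstarved libraries (151 ± 4.51, SD, n = 3). Thr-starved libraries were at 179, 178 and 180.0 CPM (179 ± 1.23, SD, n = 3) and Cys-starved libraries at 207, 204 and 207 CPM (206 ± 1.20, SD, n = 3). The groups did not overlap and followed the order unstarved, Thr, Cys. The log2 fold change was 0.24 with Thr (SE 0.025, adjusted p = 1.5e-08), 0.44 with Cys (SE 0.025, adjusted p = 4.8e-12) and -0.20 for Thr against Cys (SE 0.025, adjusted p = 1.9e-07). With the GC and length trends removed, the value with Thr was 0.36 (adjusted p = 5.1e-13) and that for Thr against Cys -0.07 (adjusted p = 0.016). An intron of the gene holds the processed pseudogene Gm15801, which shares no exon base with it and was at 24.5 to 26.7 CPM in unstarved, 53.1 to 55.8 CPM in Thr-starved and 25.3 to 26.7 CPM in Cys-starved libraries.

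Pycr1 (ENSMUSG00000025140; chromosome 11, 120635712 to 120643769, minus strand) had the lowest level of the 8 genes. Unstarved libraries held 29.1, 31.3 and 29.7 CPM (30.02 ± 1.13, SD, n = 3), Thr-starved libraries 27.1, 25.7 and 24.4 CPM (25.7 ± 1.36, SD, n = 3) and Cys-starved libraries 37.0, 38.3 and 37.3 CPM (37.5 ± 0.638, SD, n = 3). All Thr-starved libraries were below and all Cys-starved libraries above the unstarved range. The log2 fold change was -0.23 with Thr (SE 0.045, adjusted p = 1.4e-04), 0.32 with Cys (SE 0.043, adjusted p = 3.4e-06) and -0.55 for Thr against Cys (SE 0.044, adjusted p = 2.5e-10). The fall with Thr was -0.12 (adjusted p = 0.030) once the GC and length trends were removed.

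Pck2 (ENSMUSG00000040618; chromosome 14, 55540266 to 55551242, plus strand) links the TCA cycle to the synthesis of serine and glycerol by giving phosphoenolpyruvate from mitochondrial oxaloacetate. It had the widest gap between the 2 starvations of the 8 genes. The 250 bases before its start, chr14:55540016-55540265 on the plus strand, are printed because they hold both the C/EBP-ATF core and the nutrient-sensing letters, in capitals.
Pck2 promoter: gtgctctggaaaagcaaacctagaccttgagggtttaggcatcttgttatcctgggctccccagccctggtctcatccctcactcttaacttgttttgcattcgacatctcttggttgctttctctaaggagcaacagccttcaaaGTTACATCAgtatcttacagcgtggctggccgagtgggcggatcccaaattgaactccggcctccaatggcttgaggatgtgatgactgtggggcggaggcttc
Unstarved libraries held 94.7, 96.9 and 97.9 CPM (96.5 ± 1.68, SD, n = 3), Thr-starved libraries 80.7, 80.3 and 79.3 CPM (80.1 ± 0.761, SD, n = 3) and Cys-starved libraries 226, 225 and 226 CPM (226 ± 0.648, SD, n = 3). The Cys-starved libraries stood far above and the Thr-starved libraries below the unstarved range. Relative to unstarved cells the level was 0.830 times with Thr and 2.34 times with Cys. Between Thr and Cys the log2 difference was -1.49 (SE 0.025, adjusted p = 5.6e-22). The exons share 53 bases with the antisense gene Gm10876, 0.679% of their length.

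**Figure D3:**
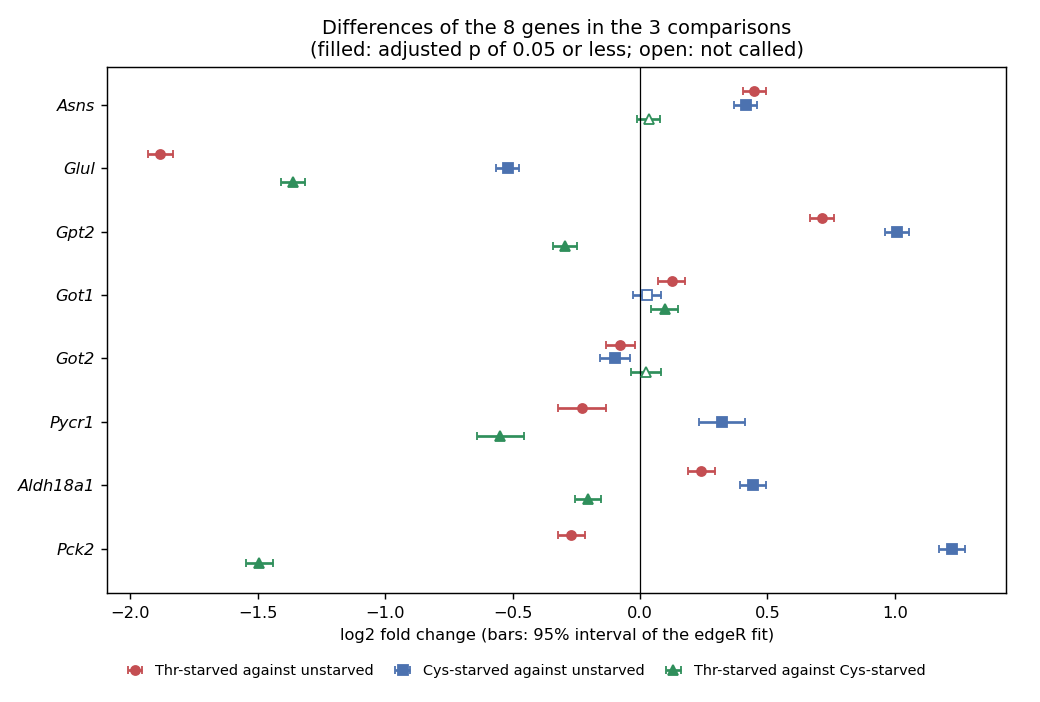
Log2 fold changes (x axis) of the 8 genes in the 3 comparisons with the 95% interval of the edgeR fit, filled where the adjusted p was 0.05 or less. Pck2 and Pycr1 lie on opposite sides of 0 for Thr and Cys, and Glul lies below 0 in each comparison.

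The 4 genes whose promoter windows held the C/EBP-ATF core did not share a pattern. Asns rose in both starvations, Pck2 and Pycr1 rose with Cys and fell with Thr, and Got1 rose with Thr alone at this threshold. Gpt2, with none of the 3 motifs in its window, rose in both. Only exact letters within these windows were searched, so variant sites and sites elsewhere were not looked for. Whether the motifs have a part in the changes was not tested.

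Levels of different genes were compared per length, as TPM (each gene's counts per base of merged exon, scaled to the same sum in every library). Unstarved ES cells had the order Asns (351 TPM), Glul (308), Got1 (189.9), Got2 (112), Aldh18a1 (78.3), Gpt2 (56.9), Pck2 (26.1) and Pycr1 (16.1), and no neighbours in that order overlapped. With Thr starvation Glul moved down to 86.0 TPM, below Gpt2 (96.0) and Aldh18a1 (95.1), which overlapped each other. With Cys starvation Gpt2 (123 TPM) passed Got2 (112) and Aldh18a1 (114), and the latter pair overlapped. Pck2 and Pycr1 stayed at the bottom in all 3 groups, Pck2 at 22.2 TPM with Thr and 65.3 TPM with Cys, Pycr1 at 14.2 and 21.6 TPM. With the length of the principal transcript in place of merged exons, Got2 was at 167 TPM with Cys starvation, above Gpt2 (149) and Aldh18a1 (103). By that length Aldh18a1 and Gpt2 overlapped in unstarved cells. With Thr starvation Gpt2 (116 TPM) then stood above Aldh18a1 (85.9) without overlap, and Glul (80.05) stayed below both.

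**Figure D4:**
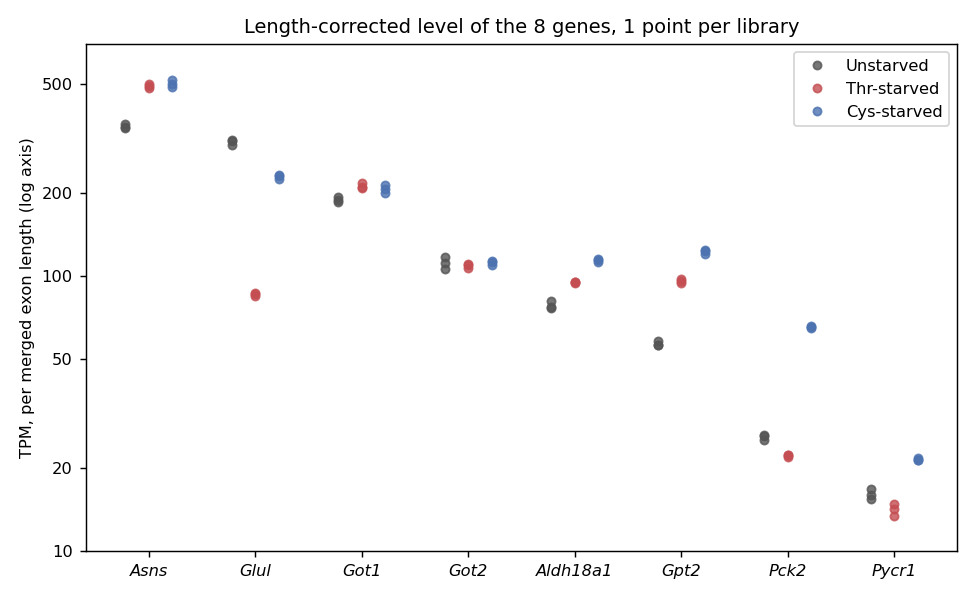
TPM over merged exon length (y axis, log scale) of the 8 genes, with 1 point per library. Glul lost its place next to Asns with Thr starvation, at 86.0 TPM against 308 TPM in unstarved cells.

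The surrounding pathways were read from 40 other genes in 6 groups, of which 32 were in the table and tested. With Thr starvation 6 rose, 14 fell and 12 were not called, with a median log2 fold change of -0.10, beside 63.0% of all tested genes called and a median of -0.02. Cys starvation gave 5 higher, 10 lower and 17 not called, with a median of -0.02, beside 36.3% and 0.01 over all genes. Thr against Cys gave 4 higher, 17 lower and 11 not called, with a median of -0.14, beside 62.0% and -0.02. Summed over both directions, the shares called with Thr and for Thr against Cys were thus near those of all genes. By direction, more of the 32 genes fell than rose in each comparison. Among all tested genes 31.9% were lower and 31.1% higher with Thr, and 18.8% and 17.5% with Cys. For Thr against Cys these shares were 31.6% and 30.4%. Genes with printed values were taken by a fixed rule, the called genes with the largest rises and falls, and the other genes, Nags included, were added after their results were seen.

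In the proline and ornithine group, 5 of 6 genes were tested. None rose and 2 fell with Thr (Pycr3 and Oat), while 1 rose (Prodh) and 1 fell (Oat) with Cys. Pycr3, a cytosolic reductase for the same final step as Pycr1, was at 33.8, 34.4 and 32.0 CPM in unstarved, 15.02, 16.02 and 16.8 CPM in Thr-starved and 31.9, 32.4 and 30.8 CPM in Cys-starved libraries. Only the Thr-starved libraries stood apart, at -1.06 against unstarved ones (log2, SE 0.048, adjusted p = 8.9e-15). With Cys Pycr3 was at -0.08 (adjusted p = 0.21), and Thr against Cys gave -0.99 (adjusted p = 4.2e-14). Prodh, the enzyme that opens proline breakdown, rose with Cys by 0.32 (SE 0.052, adjusted p = 4.8e-05). With Thr it was at -0.11 (adjusted p = 0.074).

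In the glutamate and glutamine group all 7 genes were tested. With Thr 3 rose and 2 fell, and with Cys 1 rose and 2 fell. Glud1, glutamate dehydrogenase, rose with Thr by 0.06 (SE 0.021, adjusted p = 0.022) and differed between Thr and Cys by 0.10 (adjusted p = 1.8e-04).

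Bcat2 and Bcat1 encode the mitochondrial and the cytosolic aminotransferase of branched-chain amino acids, which hand amino groups to glutamate. Bcat2 was at 117, 120.5 and 117 CPM in unstarved, 44.4, 42.2 and 43.5 CPM in Thr-starved and 112, 109 and 107 CPM in Cys-starved libraries. With Thr it changed by -1.45 (log2, SE 0.030, adjusted p = 7.7e-21), and 15.9% of its exon length overlaps an antisense gene, 0610005C13Rik. Bcat1 rose with Cys by 0.29 (SE 0.026, adjusted p = 7.3e-09) and with Thr by 0.16 (SE 0.026, adjusted p = 1.1e-05). Slc25a22, a mitochondrial glutamate carrier, was at 20.2 to 21.9 CPM in unstarved, 8.77 to 9.79 CPM in Thr-starved and 18.4 to 19.7 CPM in Cys-starved libraries, which is -1.19 with Thr (log2, SE 0.058, adjusted p = 3.6e-14).

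The aspartate, asparagine and malate-aspartate shuttle group had 8 of 9 genes tested. With Thr 2 rose (Asrgl1 and Got1l1) and 5 fell (Slc25a12, Mdh2, Mdh1, Slc25a11 and Aspg), and with Cys 2 rose (Asrgl1 and Slc25a11) and 3 fell (Mdh2, Slc25a12 and Mdh1). Mdh2, the mitochondrial malate dehydrogenase that makes the oxaloacetate used by Got2 and Pck2, was at 241 to 249 CPM in unstarved, 171 to 173 CPM in Thr-starved and 200.1 to 209.6 CPM in Cys-starved libraries. It fell by -0.51 with Thr (adjusted p = 1.4e-14) and by -0.26 with Cys (SE 0.024, adjusted p = 1.2e-08). Asrgl1, which hydrolyses asparagine, rose by 0.17 (SE 0.052, adjusted p = 0.0057) and 0.27 (SE 0.051, adjusted p = 2.2e-04).

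Of the other 3 groups, the alanine group had 3 of 5 genes tested. Mpc2, a subunit of the mitochondrial pyruvate carrier, rose with Thr by 0.43 (SE 0.068, adjusted p = 8.4e-06), from 9.36 to 9.71 CPM in unstarved to 12.8 to 12.96 CPM in Thr-starved libraries. Gpt, the cytosolic counterpart of Gpt2, fell with Thr, and none of the 3 was called with Cys. In the oxaloacetate, pyruvate and phosphoenolpyruvate group 4 of 6 were tested, and Me1, Me2 and Pkm fell in both starvations. Me1, the cytosolic malic enzyme, was at 24.7 to 27.1 CPM in unstarved, 16.1 to 16.4 CPM in Thr-starved and 20.8 to 22.03 CPM in Cys-starved libraries, with log2 fold changes of -0.67 (adjusted p = 4.3e-11) and -0.28 (SE 0.047, adjusted p = 4.7e-05). The arginine and urea cycle group had 5 of 7 tested, with Ass1 lower in both starvations and Nags higher with Cys, at a mean of 0.372 CPM against 0.135 CPM in unstarved libraries.

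**Figure D5:**
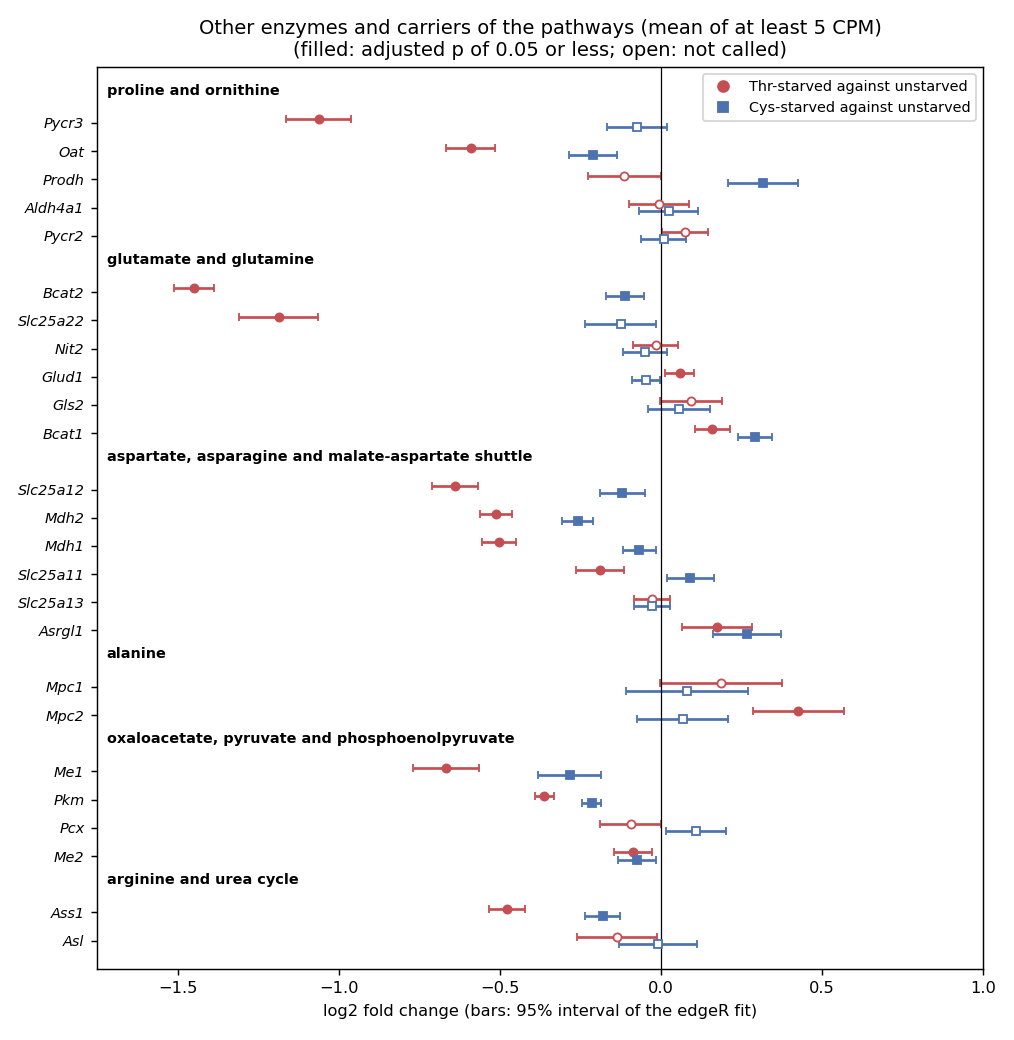
Log2 fold changes (x axis) with 95% intervals of pathway genes that averaged 5 CPM or more, by group, filled where the adjusted p was 0.05 or less. The largest falls with Thr starvation, beyond -1, were those of Bcat2, Slc25a22 and Pycr3.

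The genes whose log2 level followed each of the 8 most closely over the 9 libraries were looked up among 11409 others that averaged 5 CPM or more. The 9 points are 3 groups of 3 libraries that each share a condition, so Pearson's r is a description of the group pattern. For Asns they included Pctp and Clpx (r = 0.994 for each). For Pck2 they were Mib2, Rinl and Hip1r (0.996, 0.994 and 0.994), and for Pycr1 Kif1c, Tm2d2 and Extl1 (0.995, 0.991 and 0.989). Mib2 moved by -0.24 with Thr and 0.88 with Cys on the log2 scale, and Extl1 by -1.12 and 1.08.

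For Aldh18a1 the closest were Zfp516, Stc2 and Mrnip (r = 0.997, 0.995 and 0.992) and for Gpt2 Lrrc8d, Ddit4 and Pde4dip (0.998, 0.998 and 0.997). Lrrc8d, a subunit of volume-regulated anion channels, moved by 0.58 with Thr and 0.81 with Cys. For Glul they were Hspa8, which encodes a constitutive chaperone, and the predicted genes Gm15459 and Gm6210, with r at 0.9998 for each. Hspa8, Gm15459 and Gm6210 each moved by -1.27 with Thr and -0.34 with Cys. Whether the predicted genes share reads with Hspa8 was not tested, so they may not be separate matches. Got1 and Got2 had looser matches, Gm4459, Paip1 and Gm17771 (0.976, 0.973 and 0.973) and Bax, Pdgfb and Aes (0.934, 0.931 and 0.920). Among the 8 genes themselves, r was 0.98 for Aldh18a1 with Gpt2, 0.95 for Pck2 with Pycr1, 0.93 for Asns with Gpt2 and -0.87 for Got1 with Glul.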

How the data were processed

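Poly(A) RNA of 9 libraries was sequenced. The study's methods name 1 sequencing kit for pooled samples, but do not say whether it held all 9 libraries. The authors mapped reads to GRCm38 with STAR 2.7.4a, assigned them to Ensembl genes with HTSeq, and the deposited counts are not normalized. How HTSeq treated strand and overlapping genes is not given in the sources used here. The deposited normalized table (a signal: each count divided by 1 size factor per library, from DESeq2) gave only an alternative scaling and returned whole reads. Control columns were matched to the unstarved samples as the only columns with wild type in their names. Those names also carry a tag, absent from the starved columns, that the sources used here do not explain.

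All 20143 genes with at least 1 count were fitted together with edgeR 4.0.16 in R 4.3.3 (TMM, quasi-likelihood F test, Benjamini-Hochberg adjustment over all genes, called at 0.05), and the common biological coefficient of variation was 3.53%. CPM used TMM library sizes. Correlations used log2(CPM + 0.5). GENCODE M21 gave positions and lengths, and 20171 identifiers had a symbol and 18 none. Copies were searched with BLAST 2.17.0. On simulated counts for Thr against unstarved, 194 of 200 changed genes were recovered with 11 false calls among 20141 genes. The changed genes all had a mean of at least 5 CPM and were few, whereas 63.0% of tested genes were called with Thr in the data. The simulation therefore does not show how the fit performs where most genes differ. Nor does it cover rises as small as those of Got1 and Aldh18a1 with Thr. Falls of less than 1 on the log2 scale, such as those of Got2, Pck2 and Pycr1 with Thr, were not simulated.

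Named were the 8 genes, the genes that overlap them, in each comparison the 3 called pathway genes with the largest rise and the 3 with the largest fall (mean of at least 5 CPM), and the 3 best-correlated genes of each of the 8. Members and lists were chosen with earlier results of these data known. Alternatives were DESeq2 1.42.0, RLE and deposited size factors, filterByExpr, at least 10 counts in every library, a fit limited to the groups compared, the replicate block, a threshold of 0.01, a minimum log2 change of 1 in either direction and each fit without 1 library. Removal of GC and length trends (loess, span 0.3) and the principal transcript length were added after seeing the data. Arg and Leu starvation were not analysed here. Some genes that these rules picked are not reported here, though they are part of the counts given.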

Additional observations from a re-analysis of the deposited data

How the results depend on the processing

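Of the 24 log2 fold changes of the 8 genes, 19 kept their direction and side of the threshold under all 17 alternatives tried for each. The exceptions were Got2 in its 3 comparisons, Got1 with Cys and Asns for Thr against Cys. Got2 with Thr was 0.031 and Asns for Thr against Cys -0.049 with the GC and length trends removed, and Got1 with Cys was -0.015 with the deposited size factors, each with the opposite sign to the main value; the cause was not tested. A minimum log2 change of 1 in either direction left 0 higher and 1 lower of the 8 genes with Thr, 2 and 0 with Cys, and 0 and 2 for Thr against Cys, and of the pathway genes 0 and 4, 1 and 0, and 0 and 4. For Thr against Cys, 3 of the 8 genes were higher with the deposited size factors and 2 with GC and length trends removed, where 8 pathway genes were higher. Leaving out 1 library gave 1 to 2 of the 8 genes lower with Cys (1 without unstarved library 2) and 3 to 6 pathway genes higher with Cys (3 without unstarved library 1, unstarved library 3 or Cys-starved library 1). The latter count was 3 with DESeq2 and 3 at a threshold of 0.01. Same-numbered libraries did not deviate together (correlations from -0.24 to 0.11). With the replicate block 4 of the 8 genes were higher and 4 lower with Thr, 5 and 2 with Cys, and 1 and 5 for Thr against Cys, and no call of the 8 changed.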

Other observations

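Below the 5 CPM average, 4 further pathway genes passed edgeR's quasi-likelihood test, and they were picked out after their values were seen. Aspg, an asparaginase-type enzyme that works against Asns, averaged 2.95 CPM and had a log2 fold change of -1.96 with Thr (SE 0.15, adjusted p = 8.1e-11), -0.18 with Cys (adjusted p = 0.27) and -1.77 for Thr against Cys (adjusted p = 5.6e-10). Got1l1, a relative of Got1, averaged 1.21 CPM and was higher with Thr by 0.95 (SE 0.19, adjusted p = 1.4e-04) and at 0.21 with Cys (adjusted p = 0.46). Gpt, the cytosolic alanine aminotransferase, averaged 3.77 CPM and was at -0.43 with Thr (SE 0.13, adjusted p = 0.0050), while its mitochondrial counterpart Gpt2 rose in both starvations. With Cys, Gpt was at 0.08 (adjusted p = 0.64). Nags, which makes N-acetylglutamate for the urea cycle, averaged 0.204 CPM over the 9 libraries, where a call rests on few reads.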
